A study of Mus musculus with 4 samples.

Results

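The library from Tet2 knockout cells treated with ruxolitinib was compared with the library from untreated Tet2 wild type cells, so that loss of Tet2 and inhibition of Janus kinases were both present on one side and both absent on the other. The comparison uses 2 of the 4 libraries directly, and the other 2, knockout without drug and wild type with drug, stand for each change alone. All 4 came from C57BL/6 mice and were labelled as Lin-cKit+ bone marrow cells, that is cells without markers of mature blood lineages that carry the receptor Kit, and all 4 carried JAK2V617F. The genotypes were JAK2V617F;Tet2+/+ and JAK2V617F;Tet2-/-, each as control or with ruxolitinib. The series text describes conditional inactivation in the blood system and drug treatment of the cells after their extraction. It names a cross with Flt3ITD, whereas the labels of these libraries name JAK2V617F. Not given in those sources are the Cre driver, the dose and length of treatment, the age and number of mice, and any pooling. Ribosomal RNA was removed from total RNA before sequencing.

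Tet2 is a dioxygenase that oxidises 5-methylcytosine and so opens a path to loss of DNA methylation, and its loss is frequent in clonal blood disorders. JAK2V617F is an always active form of the kinase that couples cytokine receptors to STAT transcription factors, STAT5 above all, and it drives myeloproliferative disease. Ruxolitinib blocks JAK1 and JAK2, and genes of negative feedback such as Cish and the Socs family are among the direct targets of STAT5.

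Each gene was described by log2 ratios of FPKM + 1 (FPKM is fragments per kilobase of transcript, scaled to depth; the added 1 shrinks ratios of low genes). The combined ratio sets knockout with ruxolitinib over the wild type control, the knockout ratio sets the knockout control over it, and the drug ratio sets wild type with ruxolitinib over it. Genes averaging 1 FPKM or more across the 4 libraries, off the X and Y chromosomes and not small RNAs, counted as measured, which left 9908 of 24340 genes. Below, 4 values in a row are FPKM in 1 library each, ordered as wild type without drug, wild type with drug, knockout without drug and knockout with drug. Each group is 1 library, so no spread between replicates can be given, no test was possible, and every value is a description of these libraries. The 3 ratios share the wild type control library, so a value peculiar to it enters all of them.

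An estimate of depth from the steps between the lowest values gave 44.25 to 54.95 fragments for 1 FPKM on a transcript of 1 kilobase. Xist, the X-linked RNA of female cells, stood at 0.0241, 0.0309, 53.2 and 62.2 FPKM, and the Y-linked Ddx3y at 21.3, 18.7, 0.0288 and 0.00886 FPKM. Sex therefore differs between the genotypes as well, and its part in any value below was not tested. Whole-gene Tet2 stood at 4.69, 5.05, 3.62 and 4.39 FPKM, a value that does not show whether an exon is deleted. Kit, the receptor used to select the cells, lay between 421 and 647 FPKM and Cd34 between 307 and 465 FPKM, while the progenitor gene Flt3 was listed at 0 in all 4 libraries. Mast cell genes were abundant, with the chymase Cma1 at 8289 to 15834 FPKM and the IgE receptor chain Fcer1a at 3451 to 6008 FPKM; another defining mast cell gene, Cpa3, was listed at 0 in all 4 libraries, marked in the authors' deposited table as having too many fragments for an estimate. These levels go against a makeup of early progenitors alone, whether the cells were kept in culture is not given in those sources, and the libraries are called here by their label. The 14 B cell markers together reached 0.812 FPKM at most, and Mpo, the myeloperoxidase of neutrophil precursors, 1.31 FPKM. In RNA from bulk cells, fewer cells of a type and less RNA per cell cannot be told apart.

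The combined comparison held more large differences than either single one. Of the 9908 genes, 77 (0.777%) were at least 2-fold higher in knockout cells with ruxolitinib and 169 (1.71%) at least 2-fold lower. The knockout alone gave 64 higher (0.646%) and 113 lower (1.14%), and the drug alone 4 higher (0.0404%) and 74 lower (0.747%). At 1.5-fold or more the combined comparison held 390 genes higher (3.94%) and 418 lower (4.22%). These are the shares to set beside the list counts below. Rescaling every library to the same total, as TPM, moved the median of all genes from -0.00 to 0.16 and turned the combined split to 184 higher and 140 lower. A surplus of lower genes therefore depends on the scaling. Of the 246 genes at 2-fold in either direction (2.48%), 231 had a q-value of at most 0.05 for this pair in the authors' deposited table, a figure that compares the libraries and not the conditions.

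The 246 genes were sorted by how the combined ratio lay against the single ones, taking a factor of 1.5 as equal. In 132 genes (1.33% of those measured) the combined ratio equalled that of the knockout alone and lay away from that of the drug, with 56 higher and 76 lower. In 51 (0.515%) it equalled that of the drug alone, with 7 higher and 44 lower. In 27 (0.273%) it equalled both single ratios, and in 30 (0.303%) it exceeded both, with 11 higher and 19 lower. The last 6 (0.0606%) lay between the single ratios or short of one. A further 16 genes were at least 2-fold off in a single comparison and within 1.5-fold of the wild type control in the combined one, 6 of them with opposite single ratios (0.0606%) and 10 without (0.101%). In 48 more (0.484%) a 2-fold single difference was kept in part. For 203 of the 246 the combined ratio lay within 1.5-fold of the sum of the knockout and drug ratios, for 36 it was less extreme than that sum, and for 7 more extreme. Over all 9908 measured genes, 125 lay at least 1.5-fold off the sum. Where a single ratio is near 0, equalling the other one also places a gene near the sum.

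**Figure D1:**
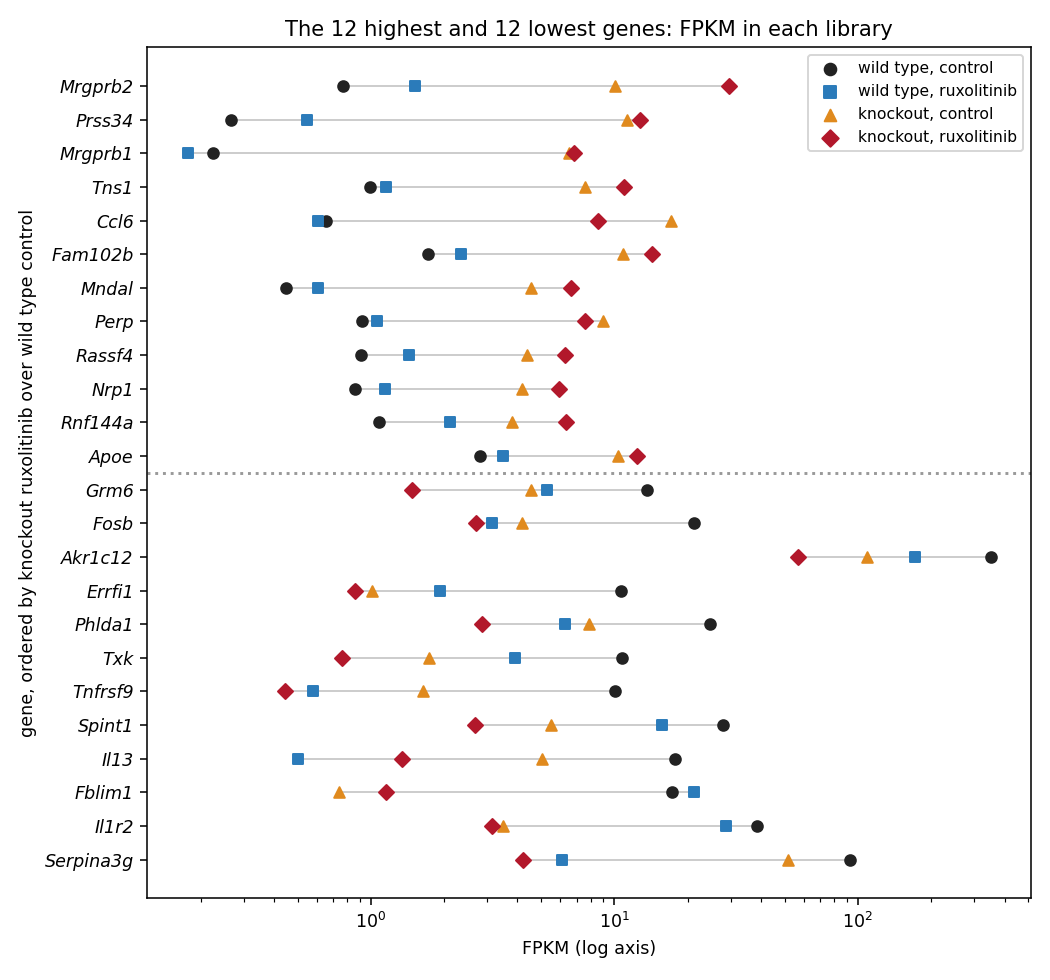
FPKM on a log axis in each of the 4 libraries for the 12 genes with the highest and the 12 with the lowest combined ratio among genes that reach 5 FPKM somewhere, with pseudogene and unnamed symbols left out, 1 marker per library and a grey line joining the lowest and highest value of a gene. At the top, Mrgprb2 runs from 0.769 without either change to 29.6 with both, and at the bottom Serpina3g runs from 92.4 to 4.22.

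Among measured genes Rpl34-ps1, a pseudogene symbol that the deposited table places on the same coordinates as Rpl34, had the lowest combined ratio, with 880.04 FPKM in the wild type control, 835 FPKM under ruxolitinib in that genotype, and a listing at 0 in both knockout libraries. Reads of near-identical copies may have been assigned differently there, and pseudogene symbols are left out of the genes ranked below. Of the rest, the lowest followed the drug. Serpina3g (chr12:104214544-104241934, mm10), a serine protease inhibitor of myeloid cells, was at 92.4, 6.09, 51.7 and 4.22 FPKM, a combined ratio of -4.16. Both ruxolitinib libraries were low and both untreated ones high. Its close relatives in the Serpina3 cluster could share reads with it.

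Among 25 measured genes of a list of 27 STAT5 and cytokine feedback targets, 12 were at least 1.5-fold lower in the combined comparison and 2 higher, against 4.22% and 3.94% of all measured genes. The median combined ratio of the list was -0.57, beside -0.00 over all measured genes, -0.31 for the knockout and -0.41 for the drug alone. Socs3, which blocks JAK kinases, stood at 19.0, 1.43, 9.77 and 2.47 FPKM, and its combined ratio of -2.53 was less extreme than the drug ratio of -3.04. Cish, a feedback inhibitor at the receptor, stood at 174, 45.1, 114 and 40.7 FPKM, with a combined ratio of -2.07, a knockout ratio of -0.61 and a drug ratio of -1.93. In both genes the knockout control lay between the untreated wild type and the treated libraries.

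Promoters of Socs3 and Cish (RefSeq, GRCm38.p6) are shown because these are the members of the list with the largest combined ratios whose window from 250 bases before to 50 after the start holds the STAT dimer motif TTCNNNGAA, read on both strands. The Serpina3g window is shown as that of the lowest gene once pseudogene symbols are left out. It lies inside the interval given above for Serpina3g and not at its start. Capitals mark the match, 154 bases before the start in Socs3 (chr11:117969317-117969616, minus strand) and 33 before it in Serpina3g (chr12:104235897-104236196, plus strand). In Cish 2 matches begin at positions 1 and 12 counted from the RefSeq start (chr9:107296409-107296708, plus strand). Both lie before 107296689, where the interval listed for Cish with its FPKM values begins.
Socs3: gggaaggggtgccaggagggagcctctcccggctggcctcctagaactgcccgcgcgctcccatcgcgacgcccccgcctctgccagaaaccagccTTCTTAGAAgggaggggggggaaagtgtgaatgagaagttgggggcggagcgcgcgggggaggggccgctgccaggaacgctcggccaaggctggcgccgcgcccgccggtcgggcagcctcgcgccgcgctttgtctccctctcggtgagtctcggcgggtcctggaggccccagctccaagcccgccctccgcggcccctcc
Cish: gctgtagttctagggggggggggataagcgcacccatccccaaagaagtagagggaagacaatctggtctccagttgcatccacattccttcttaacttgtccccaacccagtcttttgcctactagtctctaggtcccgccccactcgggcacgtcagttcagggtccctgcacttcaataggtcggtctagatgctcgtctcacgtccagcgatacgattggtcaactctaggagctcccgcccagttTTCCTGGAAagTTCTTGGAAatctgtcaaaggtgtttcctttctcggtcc
Serpina3g: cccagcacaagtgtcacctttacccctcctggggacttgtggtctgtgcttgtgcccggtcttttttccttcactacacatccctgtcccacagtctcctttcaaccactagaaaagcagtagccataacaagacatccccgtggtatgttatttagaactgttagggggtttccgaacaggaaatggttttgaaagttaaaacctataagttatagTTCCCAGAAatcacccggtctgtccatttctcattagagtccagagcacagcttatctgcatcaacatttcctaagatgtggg
The motif was in 4 of 25 windows of the measured list members (16.0%), in 7 of 52 windows of genes that equalled the drug (13.5%), in 4 of 30 of those that equalled both (13.3%) and in 8 of 124 of those that equalled the knockout (6.45%). It was in 6.97% of the windows of all measured genes and in 8.3% of all 32851 promoter windows. In genes that exceeded both single ratios it was in 2 of 30 windows (6.67%). Among lists described below, it was in 2 of 26 immediate early windows (7.69%) and 3 of 28 homologous recombination windows (10.7%). It was in 3 of 43 DNA replication windows (6.98%), 2 of 31 ribosome biogenesis windows (6.45%) and 0 of 36 mitosis windows. The shares of these lists and classes rest on few windows. A match describes letters and not a bound site.

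Other members followed the drug alone or both drug and genotype. Socs1, another JAK inhibitor, followed the drug in both genotypes, at 111, 29.99, 116 and 33.5 FPKM, with a knockout ratio of 0.06 and a combined ratio of -1.70. Pim1, a kinase that promotes survival, stood at 148, 55.5, 98.6 and 48.3 FPKM and reached a combined ratio of -1.60. The cytokine oncostatin M, Osm, stood at 97.2, 27.8, 62.3 and 26.9 FPKM and reached -1.81. Dusp5, a phosphatase of ERK kinases, was lower in all 3 other libraries than in the control, at 9.86, 2.63, 4.23 and 2.37 FPKM. Small single ratios added up in Socs2, at 29.4, 19.0, 21.8 and 14.1 FPKM, and in the survival gene Bcl2, at 14.4, 8.94, 9.73 and 6.38 FPKM. Socs2 had a knockout ratio of -0.41, a drug ratio of -0.60 and a combined ratio of -1.01. Ccnd1, a G1 cyclin of the same list, went the other way at 7.29, 8.72, 13.9 and 20.02 FPKM and was highest in knockout with ruxolitinib. The growth regulator Myc had a combined ratio of -0.26 and Bcl2l1, which encodes the survival protein BCL-XL, one of -0.45, both within 1.5-fold of the wild type control.

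**Figure D2:**
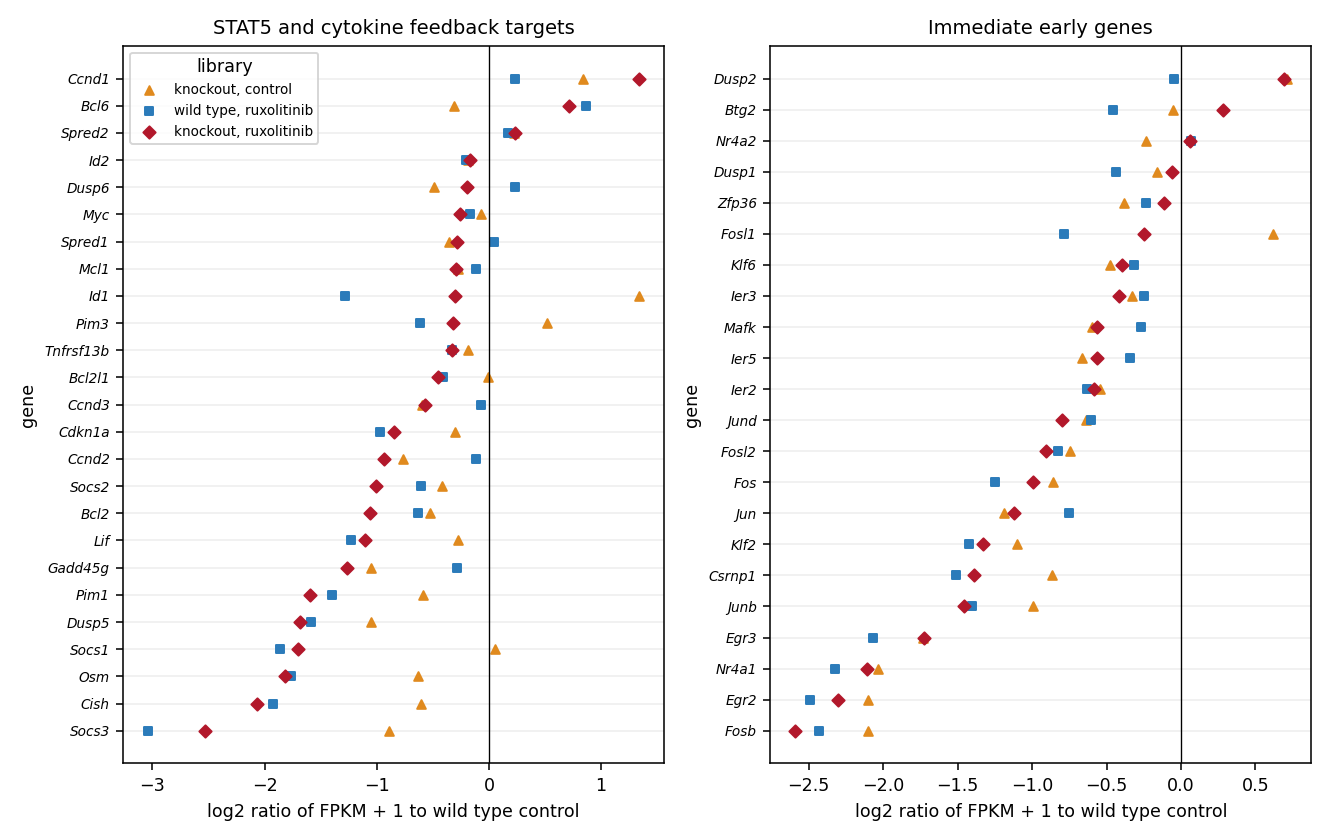
Log2 ratios of FPKM + 1 to the wild type control for the 25 measured STAT5 and cytokine feedback targets and for 22 of the 23 measured immediate early genes, with 1 marker for each of the other 3 libraries. Cish and Socs1 have both ruxolitinib libraries far below 0, whereas Egr2 and Nr4a1 have all 3 libraries near -2.

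Immediate early genes, transcription factors and regulators switched on within minutes of a stimulus, showed a different shape: all 3 other libraries lay about equally far below the wild type control. Of 23 measured among 27, 13 were at least 1.5-fold lower and 1 higher in the combined comparison, 14 lower in the knockout alone (4.48% of all measured genes) and 14 lower with the drug alone (2.03%). The wild type control was the highest library for 19 of the 23. Of the 9598 measured genes in none of the classes above, it was the highest in 1815. Some members of the list are in those classes, so that count is not the share over all measured genes. The list medians were -0.64 combined, -0.66 for the knockout and -0.75 for the drug. The combined ratio was thus less extreme than the sum, by a median of 0.66. Egr2, an early growth response factor, stood at 21.8, 3.07, 4.32 and 3.63 FPKM, Egr3 at 136, 31.6, 40.1 and 40.2 FPKM. The nuclear receptor gene Nr4a1 stood at 37.8, 6.73, 8.46 and 7.99 FPKM. Fosb, a subunit of the AP-1 factor, had 21.3, 3.13, 4.18 and 2.70 FPKM. In each of these 4 genes the combined ratio was within 1.5-fold of both single ratios. The treated knockout differed little from the untreated one in Egr3 and Nr4a1, with log2 ratios of 0.00 and -0.07. It was lower by more in Egr2 and Fosb, with -0.20 and -0.49. Whether a high value in the single wild type control library makes this shape was not tested. Of all 27 genes that equalled both single ratios, 25 were lower, and in those 25 the wild type control was the highest library, which the rule for the class fixes.

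Secreted signals of mast cells partly shared that shape. All 10 measured of 21 listed mast cell cytokines had negative combined ratios, with 4 at least 1.5-fold lower and a median of -0.54, or -0.13 over the whole list with no filter on low values. Il13, a cytokine of allergic inflammation, stood at 17.7, 0.500, 5.05 and 1.34 FPKM, and its combined ratio of -3.00 lay between the knockout ratio of -1.62 and the drug ratio of -3.64. The activation receptor Tnfrsf9 (4-1BB) had 10.01, 0.581, 1.64 and 0.445 FPKM and equalled the drug, with -2.93. Chemokines split: Ccl1 was at 10.1, 2.40, 0.781 and 1.39 FPKM and Ccl7 at 37.5, 5.90, 20.1 and 11.7 FPKM. Ccl6 was far higher in both knockout libraries, at 0.654, 0.606, 17.1 and 8.58 FPKM, and lower there with ruxolitinib than without. Its neighbour Ccl9 followed the same genotype order at 2.21, 1.06, 10.2 and 7.77 FPKM.

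On the higher side most genes followed the genotype, and DNA replication was the list with the highest median. Of 45 measured replication genes, 32 were at least 1.5-fold higher in the combined comparison and 0 lower, and all 45 had positive ratios. The knockout alone had 34 higher (3.24% of all measured genes were) and the drug alone 0 (0.505%). The list medians were 0.70 combined, 0.71 for the knockout and 0.17 for the drug. Cdt1, which loads the replicative helicase, stood at 16.3, 18.9, 31.3 and 33.2 FPKM, with a combined ratio of 0.98. Mcm5 and Mcm2, subunits of that helicase, stood at 42.9, 51.0, 79.4 and 85.5 FPKM and at 44.6, 54.1, 78.7 and 86.9 FPKM. The wild type control was the lowest library for 40 of the 45 genes, and knockout with ruxolitinib the highest for 24. Of the 9598 measured genes in none of the classes above, the wild type control was the lowest in 2225. Among the 4836 of these with a positive combined ratio, knockout with ruxolitinib was the highest in 1887.

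Mitosis genes were higher by less, with 10 of 41 at 1.5-fold or more, 0 lower, 40 positive and a median of 0.45. Ndc80, a kinetochore protein that holds microtubules, had 15.3, 17.0, 24.96 and 28.2 FPKM. Ccnf, which encodes cyclin F, had 22.5, 26.2, 32.9 and 35.9 FPKM.

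Promoters of 2 replication and 2 mitosis genes are shown by the same rule, since the lists differ in the cell cycle motif that their windows hold. Capitals mark the E2F motifs TTTCCCGC or TTTGGCGC in Cdt1 (chr8:122567765-122568064, plus strand) and Mcm5 (chr8:75109259-75109558, plus strand). They mark the cell cycle homology region TTTGAA in Ndc80 (chr17:71526808-71527107, minus strand) and Ccnf (chr17:24251360-24251659, minus strand).
Cdt1: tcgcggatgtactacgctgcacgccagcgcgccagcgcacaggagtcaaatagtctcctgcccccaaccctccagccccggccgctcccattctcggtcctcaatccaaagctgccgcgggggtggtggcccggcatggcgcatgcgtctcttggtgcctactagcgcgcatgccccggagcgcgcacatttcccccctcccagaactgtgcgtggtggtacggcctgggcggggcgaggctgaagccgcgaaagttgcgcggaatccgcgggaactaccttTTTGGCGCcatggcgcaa
Mcm5: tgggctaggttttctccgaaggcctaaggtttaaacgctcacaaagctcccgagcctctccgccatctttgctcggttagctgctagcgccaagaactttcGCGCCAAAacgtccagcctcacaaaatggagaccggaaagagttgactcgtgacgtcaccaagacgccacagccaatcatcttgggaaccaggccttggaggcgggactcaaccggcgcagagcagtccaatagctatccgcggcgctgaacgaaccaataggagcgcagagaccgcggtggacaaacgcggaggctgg
Ndc80: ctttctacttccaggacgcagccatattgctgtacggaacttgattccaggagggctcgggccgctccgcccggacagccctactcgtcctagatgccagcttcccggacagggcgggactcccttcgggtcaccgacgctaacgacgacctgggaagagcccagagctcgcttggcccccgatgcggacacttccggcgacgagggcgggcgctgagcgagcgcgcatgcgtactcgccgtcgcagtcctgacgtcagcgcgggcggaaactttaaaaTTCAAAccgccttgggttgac
Ccnf: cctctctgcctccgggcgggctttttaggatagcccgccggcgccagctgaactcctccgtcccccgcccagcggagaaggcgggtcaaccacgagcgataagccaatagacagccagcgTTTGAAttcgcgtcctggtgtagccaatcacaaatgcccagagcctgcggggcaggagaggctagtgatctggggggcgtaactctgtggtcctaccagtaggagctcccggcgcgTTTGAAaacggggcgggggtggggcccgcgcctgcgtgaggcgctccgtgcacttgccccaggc
On both strands, an E2F motif was in 11 of 43 replication windows (25.6%) and 0 of 36 mitosis windows, in 3.1% of the windows of measured genes and in 1.56% of all windows. TTTGAA was in 27 of 36 mitosis windows (75.0%) and 5 of 43 replication windows (11.6%), in 11.8% of the windows of measured genes and in 17.9% of all. Both lists had higher medians in the knockout control than with the drug alone.

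Repair genes that act at replication forks went with this group, in smaller steps. Homologous recombination had 12 of 37 genes at 1.5-fold or more above the wild type control and 0 below. Over all measured genes the shares were 3.94% and 4.22%. The list median was 0.34, or 0.23 with a pseudocount of 5. Brca1, which promotes repair by homologous recombination, stood at 6.80, 8.11, 11.1 and 12.2 FPKM. Of 15 Fanconi anaemia genes, which unhook crosslinks, 3 were higher and 0 lower. All 8 mismatch repair genes had positive ratios, with Msh6 at 12.6, 15.9, 21.1 and 21.8 FPKM. Among 14 classical end joining genes, 0 passed 1.5-fold in either direction, and the median was 0.05. Lig4, the ligase of that pathway, was level at 2.18, 2.33, 2.35 and 2.43 FPKM. Parp1, which senses strand breaks, stood at 37.7, 39.4, 49.6 and 48.5 FPKM, and the list of PARP and alternative end joining genes had 2 of 16 higher and 1 lower. The combined ratios of the repair genes named here lay within 1.5-fold of the knockout ratio and also of the drug ratio. At such small ratios this margin does not separate genotype from drug. Whether repair genes differ beyond their share in cell cycle was not tested.

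**Figure D3:**
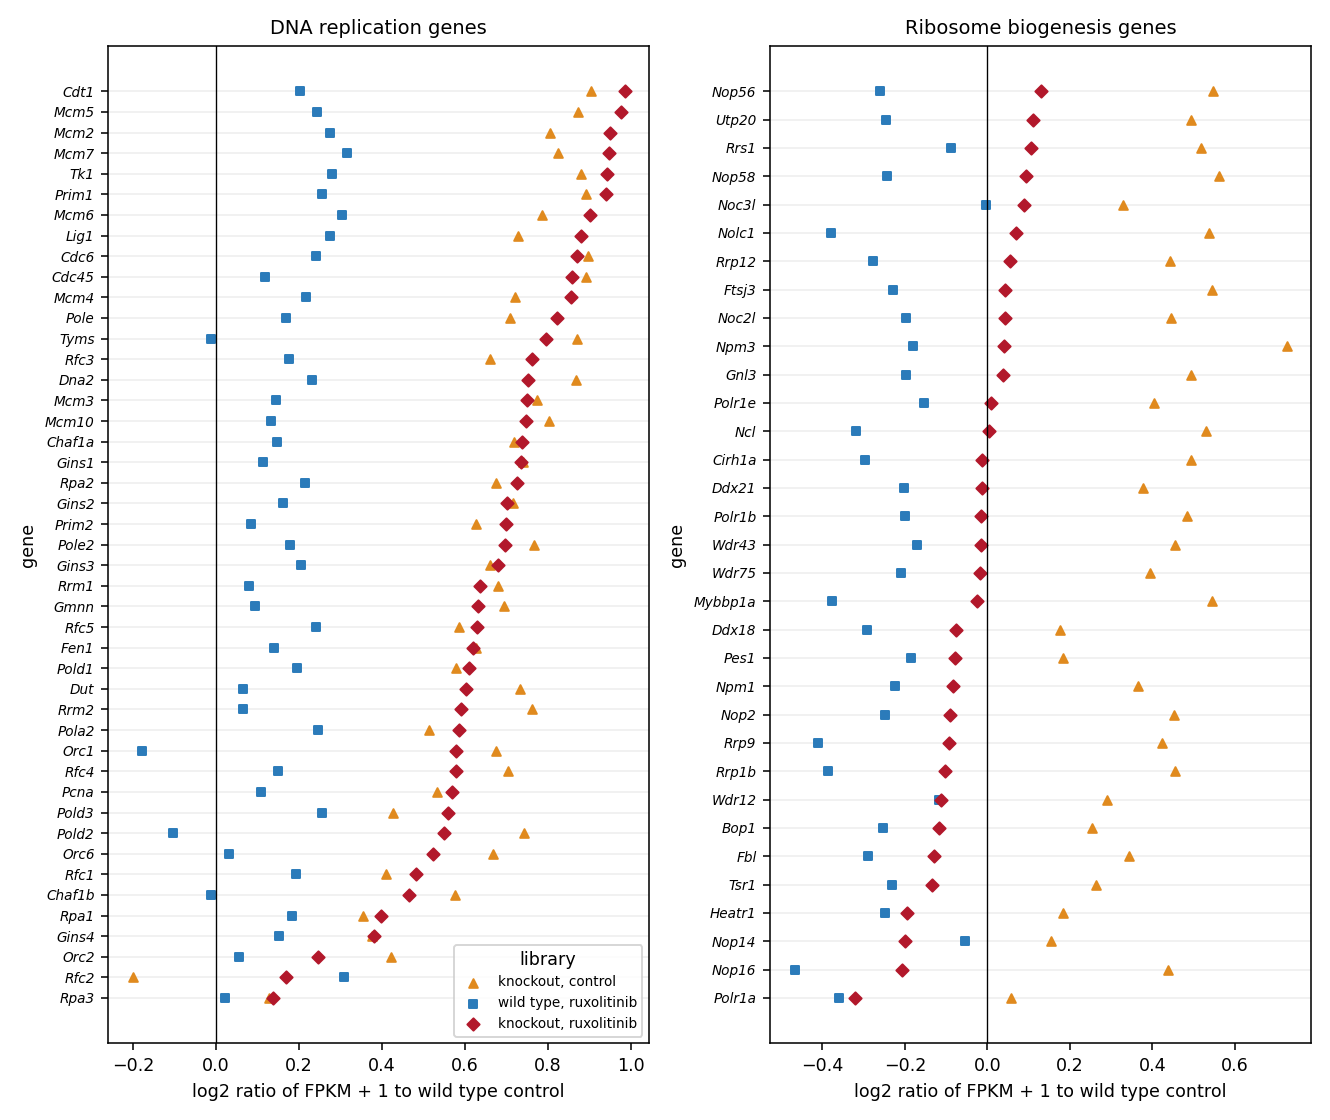
Log2 ratios of FPKM + 1 to the wild type control for the 45 measured DNA replication genes and the 33 measured ribosome biogenesis genes, with 1 marker for each of the other 3 libraries. In replication both knockout libraries have like medians, 0.71 and 0.70, with Rfc2 apart, and in ribosome biogenesis they part, with medians of 0.44 without and -0.02 with ruxolitinib.

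The list of G1 cyclins and Cdk inhibitors split, with 4 of 15 higher and 4 lower in the combined comparison. Cdkn2a, which encodes p16 and p19ARF, stood at 141, 126, 38.7 and 35.8 FPKM, a combined ratio of -1.95, and its neighbour Cdkn2b at 5.11, 3.05, 1.254 and 1.18 FPKM. Cdkn2c, which encodes another inhibitor, p18, was higher instead, at 24.4, 31.8, 33.0 and 41.7 FPKM. Cdkn1a, which encodes p21, followed the drug, at 410.5, 209, 332 and 228 FPKM. The maintenance methylation genes were higher with the replication genes: Uhrf1 had 29.9, 37.7, 54.0 and 59.7 FPKM and Dnmt1 had 52.8, 60.8, 78.1 and 86.1 FPKM. Dnmt3a, a methyltransferase that acts on unmethylated sites, lay between 9.31 and 10.4 FPKM.

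Several of the genes with the highest and lowest ratios equalled the knockout. Prss34, a granule protease of basophils and mast cells, stood at 0.266, 0.548, 11.3 and 12.8 FPKM, near the floor in both wild type libraries. Mcpt8, a basophil protease, stood at 94.4, 95.6, 277 and 254 FPKM. The basophil markers Hgf, Ccl9 and Ccl6 also had higher values, from low levels of 0.470, 2.21 and 0.654 FPKM in the wild type control. Markers above Mcpt8 in that library had negative combined ratios: Cd69 -0.82, Gata2 -0.29, Cd200r3 -0.17 and Ms4a2 -0.09. Il3ra had 0.25. Past 1.5-fold, 5 of the 10 measured basophil markers lay above the wild type control and 1, Cd69, below it. Among 24 measured mast cell markers, 4 were higher and 3 lower, and their summed level ran 41314, 45956, 28979 and 34309 FPKM. Mast cell proteases are near copies of one another, and reads may be split among them. Lower in the knockout were Il1r2, a decoy receptor for interleukin-1, at 38.5, 28.7, 3.48 and 3.15 FPKM, and Fblim1, a filamin-binding adaptor, at 17.3, 21.1, 0.742 and 1.15 FPKM. Higher were the adhesion gene Tns1 at 0.991, 1.16, 7.54 and 11.0 FPKM, the co-receptor gene Nrp1 at 0.862, 1.14, 4.18 and 5.95 FPKM, and the lipid carrier Apoe at 2.81, 3.49, 10.4 and 12.4 FPKM. The part of a different mix of mast cells and basophils in these values was not tested.

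A small group lay beyond both single libraries: 30 genes. In all 19 of the lower ones knockout with ruxolitinib was the lowest library, which the rule for the class fixes, and the medians were -1.95 combined, -1.26 for the knockout and -0.997 for the drug. Spint1, an inhibitor of membrane serine proteases, stood at 27.9, 15.7, 5.48 and 2.68 FPKM, with a knockout ratio of -2.16, a drug ratio of -0.79 and a combined ratio of -2.97. Akr1c12, an aldo-keto reductase with near-identical neighbours, stood at 352, 171, 108 and 56.5 FPKM. Phlda1, which restrains growth signalling, had 24.6, 6.25, 7.85 and 2.85 FPKM, and Txk, a Tec family kinase, had 10.8, 3.90, 1.74 and 0.764 FPKM. Galectin-3, Lgals3, had 116, 54.1, 57.8 and 33.6 FPKM. In these, the combined ratio was the sum of the single ones or somewhat short of it: the difference from the sum was -0.02 in Spint1, 0.11 in Akr1c12, 0.62 in Phlda1 and 0.63 in Txk.

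The higher genes of that group were fewer and lower in level, 11 in all, with medians of 1.57 combined, 0.47 for the knockout and 0.32 for the drug. Mrgprb2 (chr7:48550966-48558086, mm10), the mast cell receptor for basic peptides and many drugs, stood at 0.769, 1.52, 10.01 and 29.6 FPKM. Its combined ratio of 4.11, the highest of the measured genes named here, passed the sum of 2.64 and 0.51 by 0.96. Both wild type values lie near the added 1, so the size of this excess depends on it. Mrgprb1, a neighbouring relative, stood at 0.225, 0.177, 6.48 and 6.83 FPKM and followed the knockout only. Itgae, the integrin chain CD103, had 1.19, 1.73, 3.79 and 6.67 FPKM, and Il1rap, the shared chain of interleukin-1 and interleukin-33 receptors, had 4.70, 6.48, 6.87 and 11.1 FPKM.

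**Figure D4:**
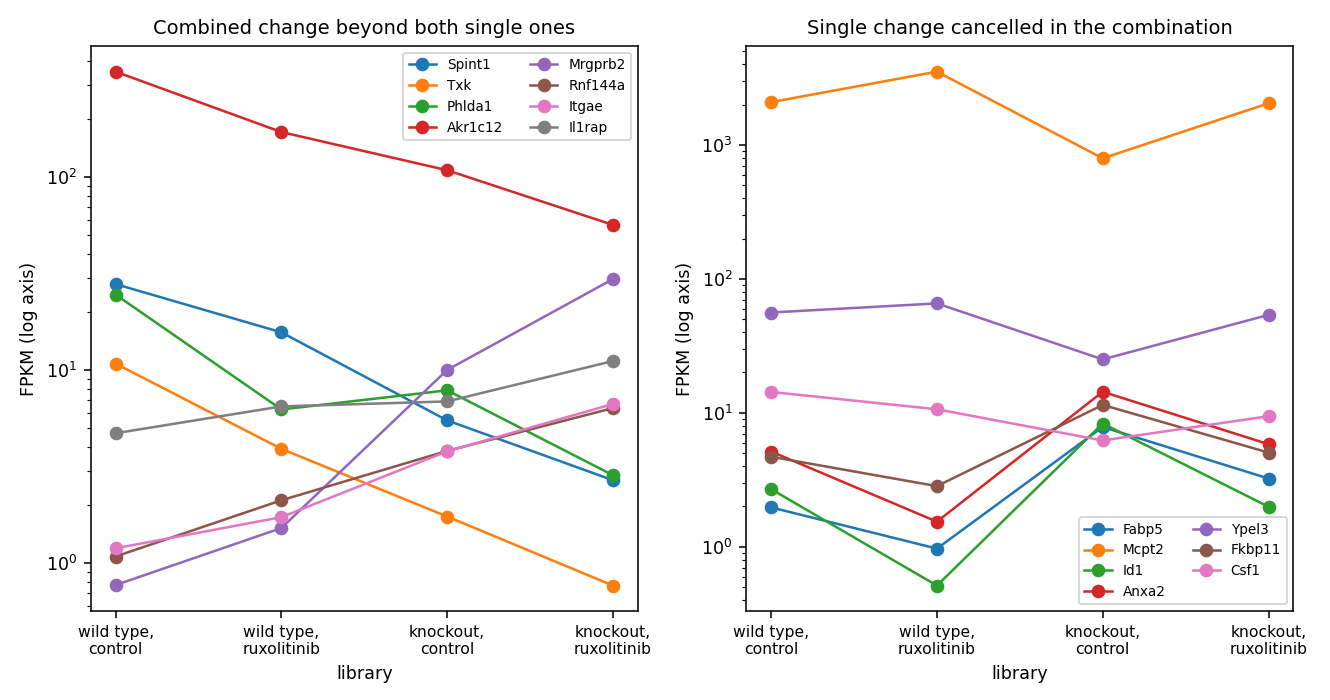
FPKM on a log axis in each of the 4 libraries, 1 line per gene joining its points, for 8 named genes whose combined ratio lay beyond both single ones and for 7 of the 8 named genes off in a single comparison but not in the combination. In the first panel the last library is the extreme one for each gene, as in Mrgprb2 at 29.6, and in the second it lies near the first, as in Mcpt2 at 2043 beside 2085.

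In the 16 genes that returned to within 1.5-fold of the wild type control, the single differences were opposite in 6. Id1, an inhibitor of differentiation factors, stood at 2.69, 0.514, 8.32 and 1.99 FPKM, with a knockout ratio of 1.34, a drug ratio of -1.29 and a combined ratio of -0.30. Anxa2, a membrane-binding annexin, had 5.14, 1.54, 14.4 and 5.84 FPKM, and the fatty acid carrier Fabp5 had 1.97, 0.970, 7.84 and 3.23 FPKM. Mcpt2, a mast cell chymase, was the abundant case with the signs turned, at 2085, 3518, 794 and 2043 FPKM. Its levels in the 2 libraries compared differed by 1.02-fold on the FPKM + 1 scale, although the knockout control was the lowest library and wild type with ruxolitinib the highest. In Ypel3, of a family linked to growth arrest, the knockout control stood apart at 25.05 FPKM beside 56.1, 65.6 and 53.8 FPKM in the others.

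The medians of some metabolic lists showed a like return, in small steps, although not every member did. All 33 measured ribosome biogenesis genes had positive knockout ratios (median 0.44) and all 33 negative drug ratios (median -0.24), and the combined median was -0.02, with 13 positive and 20 negative. At 1.5-fold the combined comparison had 0 genes in either direction. Ncl, the nucleolar protein nucleolin, stood at 99.8, 79.8, 144 and 100.05 FPKM. Npm1, nucleophosmin, stood at 210.0, 179.6, 271 and 198 FPKM. Polyamine and one-carbon genes had medians of 0.38 for the knockout, -0.17 for the drug and 0.00 combined, with Srm, spermidine synthase, at 127, 90.3, 166 and 100.2 FPKM. Cholesterol synthesis genes had medians of 0.18, -0.34 and -0.10 in that order, with drug ratios negative in all 22 genes. With values rescaled to TPM the combined medians were 0.15, 0.17 and 0.07 for ribosome biogenesis, polyamine and cholesterol genes, beside 0.16 over all genes, so the sign of these small medians depends on the scaling.

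**Figure D5:**
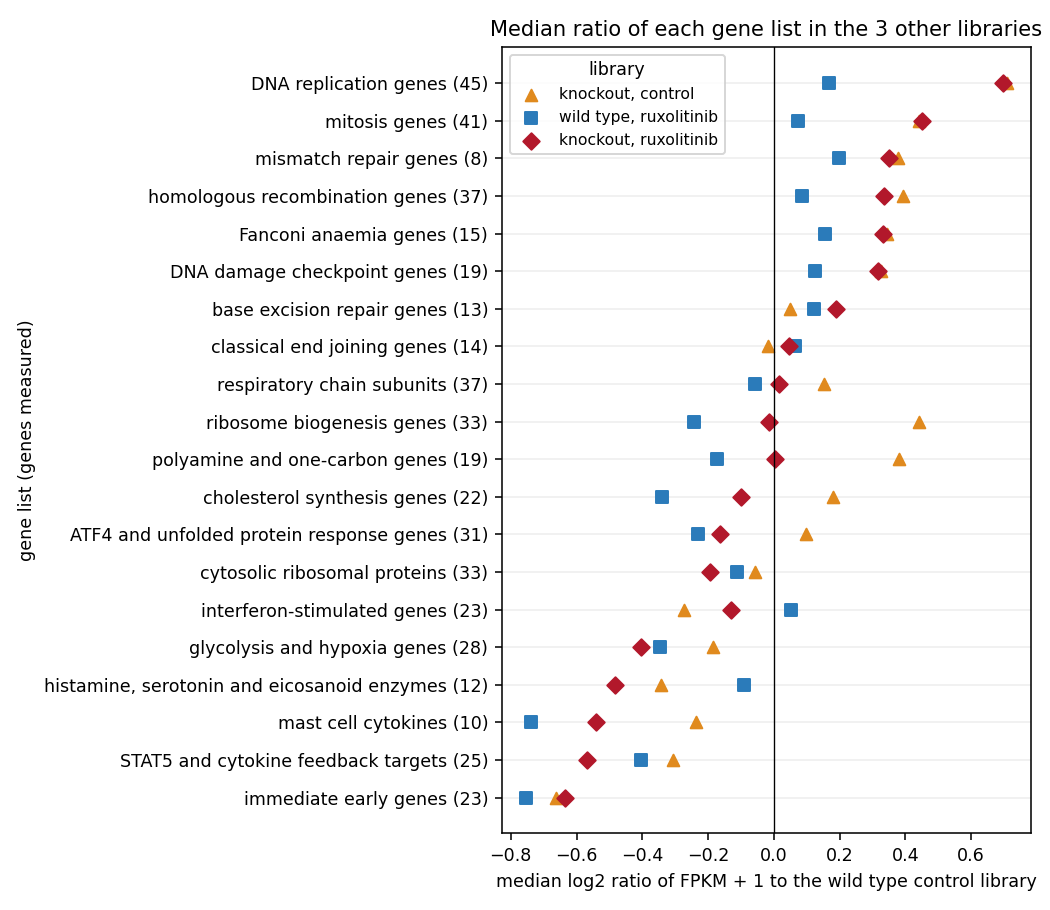
Median log2 ratio of FPKM + 1 to the wild type control over the measured members of 20 gene lists, with 1 marker for each of the other 3 libraries and the number of measured genes in brackets. DNA replication genes lie at 0.70 and immediate early genes at -0.64 in knockout with ruxolitinib, and ribosome biogenesis genes at -0.02.

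Glycolysis and hypoxia genes were lower in the combined comparison, with a median of -0.40 over 28 genes, 7 at least 1.5-fold lower and 1 higher. Pfkp, a phosphofructokinase, followed the knockout and stood at 67.8, 50.02, 35.0 and 24.2 FPKM, while Bnip3, a mitophagy receptor induced in hypoxia, followed the drug at 17.99, 6.20, 13.9 and 6.54 FPKM. Ndrg1, also of that list, was the exception at 38.0, 41.3, 35.97 and 71.0 FPKM, high in knockout with ruxolitinib alone. Histamine, serotonin and eicosanoid enzymes had a median of -0.48 over 12 genes, 4 of them lower. Tph1, which starts serotonin synthesis, stood at 2642, 1689, 2168 and 1197 FPKM, and Hdc, which makes histamine, at 12.2, 3.68, 5.85 and 4.52 FPKM.

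Receptors through which JAK2 acts did not share one direction, with 1 of 11 higher and 3 lower. The common beta chain genes Csf2rb and Csf2rb2, near copies that may share reads, stood at 1199, 917, 926 and 725 FPKM and at 2034, 1361, 1532 and 1022 FPKM. Il5ra, which pairs with that chain, was higher at 3.24, 6.33, 5.45 and 9.02 FPKM. Kit had a combined ratio of 0.20 and followed the drug upward in both genotypes, at 487, 647, 421 and 562 FPKM. Jak2 stood at 36.8, 35.1, 24.5 and 24.9 FPKM and followed the genotype, with a combined ratio of -0.55. Of the 11 Janus kinases and STATs, 0 passed 1.5-fold in the combined comparison. Interferon-stimulated genes had 6 of 23 lower and 0 higher, with Ifitm1 at 2900.3, 2188, 1596 and 1072 FPKM.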

How the data were processed

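Total RNA depleted of ribosomal RNA was sequenced, per the labels' protocols, and processed with STAR and Cuffdiff on mm10, per the submitters' processing notes; not given in the sources used here are versions, annotation and scaling. The authors deposited FPKM values for 24340 genes in 4 libraries, 1 per group, grouped here by the labels' titles. The authors also deposited a table of pairwise comparisons, as log2 fold changes with q-values, of which the q-values and status for 1 pair were used.

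Ratios were taken on log2(FPKM + 1) with Python 3.11.15, numpy 2.4.6 and pandas 2.3.3, and drawn with matplotlib 3.10.9. No test was made. The steps were tested on simulated data with counting noise only. That setting has no variation between libraries, and its planted changes were larger than many here. It therefore does not give the error of the classes in these libraries. Gene types and chromosomes came from the reference tables, where 9886 of the 9908 measured genes matched; 330 X or Y genes and 233 small RNAs were left out. Members, the 53 gene lists (1027 of 1033 entries matched), thresholds and motifs were chosen with earlier results of these data known. Lists were described by their median where 5 or more members were measured. Promoter windows were RefSeq's on GRCm38.p6, the build also called mm10, and the motifs were chosen after values were seen.

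The rule for named genes took the 12 highest and 12 lowest with at least 5 FPKM in a library, up to 4 per class (X, Y, small RNA, pseudogene and unnamed symbols left out of both), 4 per list with a median at least 0.25 from that of all genes, or with many members past 1.5-fold, and a fixed set of signalling and repair genes, 118 in all; the text describes a part of them, and others named from the lists or the library checks were chosen after their values were seen. Depth was estimated from the low values of 2245 genes with 1 transcript, of which 79.7% to 86.9% lay within 0.15 of a whole multiple of 1 fragment; 1 FPKM on 1 kilobase is then about 44.25 to 54.95 fragments. Near-identical genes may share or lose reads: Gapdh, which has many pseudogenes, lay at 0.862 to 1.41 FPKM.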

Additional observations from a re-analysis of the deposited data

Results flagged for a closer look

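Xist, an X-linked gene left out of the comparison, stood at 62.2 FPKM in the knockout ruxolitinib library and at 0.0241 FPKM in the wild type control. It was singled out because it is a signal outside the genes compared that lies above its level in the control library. Of 5 Y-linked genes averaging 1 FPKM or more, 4 were higher in both wild type libraries. What a difference in sex contributes to the combined ratios was not tested.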

How the results depend on the processing

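No paired analysis was possible because each group is 1 library and the labels carry no replicate numbers; no library could be left out. The counts given for the main settings were 77 higher, 169 lower, 30 beyond both single ratios, 132 equal to the knockout, 51 equal to the drug, 27 equal to both, 16 returned and 125 more than 1.5-fold off the sum of the single ratios. With a pseudocount of 0.1 they were 143 higher, 58 beyond both, 45 returned and 212 off the sum. With a pseudocount of 5 they were 20 higher, 80 lower, 4 beyond both, 54 equal to the knockout, 19 equal to the drug, 5 returned and 52 off the sum. With a mean of at least 5 FPKM they were 34 higher, 14 beyond both, 78 equal to the knockout, 33 equal to the drug, 9 returned and 66 off the sum, over fewer genes. Rescaled to TPM they were 184 higher and 46 beyond both. With X, Y and small RNA genes kept they were 122 higher, 69 beyond both, 47 equal to both, 98 returned and 310 off the sum. A 3-fold rule gave 23 higher and 56 lower. A narrower margin, which counts fewer values as equal, gave 96 beyond both, 6 equal to both, 6 returned and 504 off the additive sum, and one of 2-fold gave 3 beyond both, 27 equal to the drug, 111 equal to both, 64 returned and 28 off the sum. The alternatives for the sum were chosen after seeing the data. The counts stayed within 1.5 times in the other 51 recomputations, which include all 9 counts with no filter, with libraries centred on their median ratio, and with protein-coding genes only. Of the list medians, 352 recomputed values stayed past, or stayed short of, a distance of 0.25 from the median of all genes. For lists short of that distance the sign was not compared. The chemokine median of -0.43 went to 0.55 with a mean of at least 5 FPKM and to 0 with no filter. A distance of 0.25 from the median of all genes was lost in 11 recomputed list medians and gained in 1, base excision repair at 0.24. With a pseudocount of 5 the lost ones were the interleukin-1 receptor family at -0.17, E2F factors at 0.23, homologous recombination at 0.23, Fanconi anaemia at 0.18, mismatch repair at 0.24 and checkpoint genes at 0.23. With no filter they were mast cell cytokines at -0.13, serpins at -0.02, G1 cyclins and Cdk inhibitors at 0.18 and monocyte markers at -0.00, and with a mean of at least 5 FPKM integrins at 0.02. The STAT5, immediate early, DNA replication and mitosis lists stayed past that distance under every setting tried. Of the recomputed ratios of named genes 426 kept their side of 2-fold, 23 passed it and 23 lost it. The causes were not tested. Depth limits genes near 1 FPKM, where the added 1 also sets the ratio.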
